A study of Mus musculus with 6 samples.

Results

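The natriuretic peptide system of the heart is described here through 9 genes, taken from the 78409 rows of the deposited table by gene name, each matching 1 row. They are the peptides Nppa, Nppb and Nppc, the receptors Npr1, Npr2 and Npr3, and the proteases Corin, Furin and Mme. The mice were 11 months old, and whole-heart RNA was sequenced from 3 hearts labelled as carrying a Ybx1 knockout specific to cardiomyocytes and from 3 hearts of littermate controls. The protein made from Ybx1 binds RNA and DNA and is named for the Y-box, a promoter element. The driver of the knockout, the controls' alleles and the sex of the mice are not given in the sources used here. By its design text, the study looked for transcriptome differences between these groups.

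Natriuretic peptides are hormones that heart muscle makes as precursors and releases when its walls are stretched. Atrial muscle is the main source of atrial natriuretic peptide (ANP, from Nppa), and stressed ventricular muscle of B-type natriuretic peptide (BNP, from Nppb), while C-type natriuretic peptide (CNP, from Nppc) is made mostly by endothelial cells. The proteases corin and furin cut the precursors into the active forms. ANP and BNP act through the receptor encoded by Npr1 and CNP through that of Npr2, both of which make the messenger cyclic GMP, and the peptides are removed by the clearance receptor of Npr3 and by neprilysin, encoded by Mme.

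Nppa and Nppb are next to each other on chromosome 4 in the RefSeq assembly GRCm38.p6, on the same strand and with no protein-coding gene between them. The 250 bases before the start of each are shown because the transcripts of these neighbours gave different values in the knockout hearts. The windows lie at chr4:147985650-147985899 for Nppb and at chr4:148000472-148000721 for Nppa, both on the + strand, in RefSeq's GRCm38.p6. Capitals mark matches, on either strand, to 3 motifs of heart transcription factors: the GATA motif (AGATAA or TGATAA), the M-CAT element bound by TEAD factors (CATTCC, printed as GGAATG where it lies on the other strand) and the NKX2-5 motif (TNAAGTG).
Nppb: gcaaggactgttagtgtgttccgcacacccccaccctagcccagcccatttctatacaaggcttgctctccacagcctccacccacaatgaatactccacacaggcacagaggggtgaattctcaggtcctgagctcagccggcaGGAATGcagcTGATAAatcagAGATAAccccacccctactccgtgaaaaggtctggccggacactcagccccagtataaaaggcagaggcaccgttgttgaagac
Nppa: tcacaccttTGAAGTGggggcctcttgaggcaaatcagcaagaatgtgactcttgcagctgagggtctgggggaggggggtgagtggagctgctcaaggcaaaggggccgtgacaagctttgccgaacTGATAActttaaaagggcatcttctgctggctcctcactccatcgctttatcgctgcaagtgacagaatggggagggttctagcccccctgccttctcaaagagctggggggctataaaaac
The Nppb window held 2 GATA matches, 95 to 90 and 84 to 79 bases before the start, and 1 M-CAT match 105 to 100 bases before it. The Nppa window held 1 GATA match, 122 to 117 bases before the start, and 1 NKX2-5 match 241 to 235 bases before it, and no M-CAT match. Of all 32851 RefSeq windows of this length, 16.6% held the GATA motif, 12.6% M-CAT and 10.1% NKX2-5. Both windows held a TATA motif (TATAAA), as did 12.4% of all windows, and neither held the core of the Y-box element (ATTGG, on either strand), which 33.8% held. These matches describe the letters and are not evidence of binding.

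The libraries held 12270796 to 15141525 counts. Ybx1 was at 653 to 932 deposited CPM (each count scaled to the same library total) in control hearts and at 131 to 222 in knockout hearts. Knockout heart 3 stood apart, where mitochondrial rRNA took 10.7% of counts, against 20.5% to 26.3% in the other 5 libraries. The RNA Malat1 was at 668 deposited CPM there, against 3317 to 7923 in the other 5. Of 5 lung epithelial markers, 4 had no count in any library, and the 8 cardiomyocyte markers were detected in all 6. Each group held 1 heart that expressed the X-inactivation RNA Xist (control heart 1 and knockout heart 3). Of the 9 members 8 passed the filter of 1 CPM in at least 3 libraries and were tested among 13717 genes. Nppc did not pass.

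With gene length taken into account (exons of GENCODE M21), the order in control hearts was Nppb, Nppa, Corin, Furin, Npr2, Npr1, Npr3, Mme and Nppc. Nppb was at 235 ± 30.3 and Nppa at 172 ± 34.6 normalised CPM per kilobase (SD, n = 3), and their ranges met, though Nppb was the higher in each of the 3 hearts. Corin was at 18.01 ± 4.02 and Furin at 2.83 ± 0.551 on this scale, each apart from its neighbours in every control heart. The receptors Npr2 and Npr1 were at 1.35 ± 0.343 and 1.33 ± 0.550 and could not be ordered, with Npr2 the higher in 1 of 3 control hearts. Npr3 was at 0.644 ± 0.113, Mme at 0.282 ± 0.0949 and Nppc, with at most 2 counts in a library, at 0.102. Nppa and Nppb thus stood above the 3 receptors on this scale, and Nppc below them.

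Nppb (ENSMUSG00000029019), the BNP gene, was the member with the largest difference. Its level was 189, 158 and 204 normalised CPM in control hearts 1, 2 and 3 against 436, 505 and 281 normalised CPM in knockout hearts 1, 2 and 3. Every knockout heart lay above every control heart, and knockout heart 3 was the lowest of its group. The mean was 184 ± 23.7 in control and 407 ± 115 in knockout (SD, n = 3 each), a fitted ratio of 2.22 with a 95% confidence interval of 1.48 to 3.33 (log2 fold change 1.15, SE 0.26). In bulk tissue, a change in the number of cells of a type and a change in RNA per cell cannot be told apart.

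Nppb did not pass edgeR's quasi-likelihood test over all genes (Benjamini-Hochberg adjusted p = 0.694), and passed DESeq2 (adjusted p = 0.0201) and edgeR without the filter on low values (adjusted p = 0.00838). No gene passed the main edgeR test, so the background is 0% of 13717 genes (limma-trend also called 0). DESeq2 called 15 genes, 0.109%, and the unfiltered edgeR fit 133 of 33251, 0.4%. Among the 8 tested members, Nppb was the 1 with an unadjusted edgeR p below 0.05, against 705 genes or 5.14% of all tested (2.69% counting those higher in knockout). Groups that do not overlap were found for 1 of the 8 members and for 12.1% of all genes (6.26% counting those higher in knockout). A share of 1 in 8 is near that background. An exact permutation test of Nppb, two-sided, gave p = 0.1, the lowest that 3 against 3 allows. Leaving out 1 library gave log2 fold changes from 0.95 (without knockout heart 2) to 1.36 (without knockout heart 3), and adjusted p from 0.105 to 0.9999 in edgeR.

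Markers of other cells were examined beside Nppb. The calprotectin transcripts S100a8 and S100a9 were the 2 of 6 neutrophil markers that passed the filter. No gene of the list was at 0 in all libraries. Both transcripts were highest in knockout hearts 1 and 2 (edgeR adjusted p = 0.694 each). In control hearts 1, 2 and 3 S100a8 was at 1.05, 0.739 and 1.99 normalised CPM, so its passing rested partly on the knockout hearts. The summed neutrophil list was at 2.96 to 5.44 normalised CPM in control hearts and at 5.50 to 12.1 in knockout hearts. Most of this sum came from these 2 genes. The 8 macrophage and monocyte markers summed to 68.9 to 79.9 normalised CPM in control hearts and to 85.0 to 97.0 in knockout hearts. The most abundant of them, C1qa, was at 33.4 ± 3.96 in control and 42.1 ± 3.40 in knockout hearts (SD, n = 3 each). In this list 6 log2 fold changes lay above 0 and 2 below (Cd163 at -0.51 and Ly6c2 at -0.29). The 8 cardiomyocyte markers summed to 17956 to 21302 normalised CPM in control hearts and to 15034 to 18302 in knockout hearts, with overlapping ranges. Of these 8, Myh6, Ttn and Ryr2 were lower in every knockout heart than in any control (log2 fold changes -0.64, -0.83 and -0.26, edgeR adjusted p 0.694 to 0.696), and Myh6 and Ttn had an unadjusted p below 0.05. Without knockout heart 3 the log2 fold changes of these genes were -0.49, -0.54 and -0.22. Of the same 8 markers, 3 had log2 fold changes above 0 and 5 below. Over all genes tested, 12.1% had groups that do not overlap and 5.14% an unadjusted edgeR p below 0.05. All 8 fibroblast markers had log2 fold changes above 0 (median 0.31), with sums of 1437 to 1785 normalised CPM in control and 1729 to 2256 in knockout hearts. Among all 13717 tested genes 7010 lay above 0. Without knockout heart 3, Lum was at -0.05 and Tcf21 at -0.01. Dpep1 was at -0.24 without knockout heart 1, and Col1a1 at -0.05 without control heart 2. The rest of the list stayed above 0 when 1 library was left out. The 7 ventricular markers summed to 7613 to 8485 normalised CPM in control hearts and to 5840 to 8492 in knockout hearts. Of their log2 fold changes 5 lay above 0 and 2 below. The 8 endothelial markers summed to 1118 to 1539 in control and 872 to 1854 in knockout hearts (5 above 0, 3 below). The 8 smooth muscle and pericyte markers summed to 581 to 713 and 499.6 to 769 (2 above 0, 6 below). The part of these cells in the Nppb difference was not tested. The mean log2 level of the atrial markers as a covariate left Nppb at a log2 fold change of 1.12 (edgeR adjusted p = 0.451). Without the 2 hearts that express Xist it was 1.38 (edgeR adjusted p = 0.290).

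**Figure D1:**
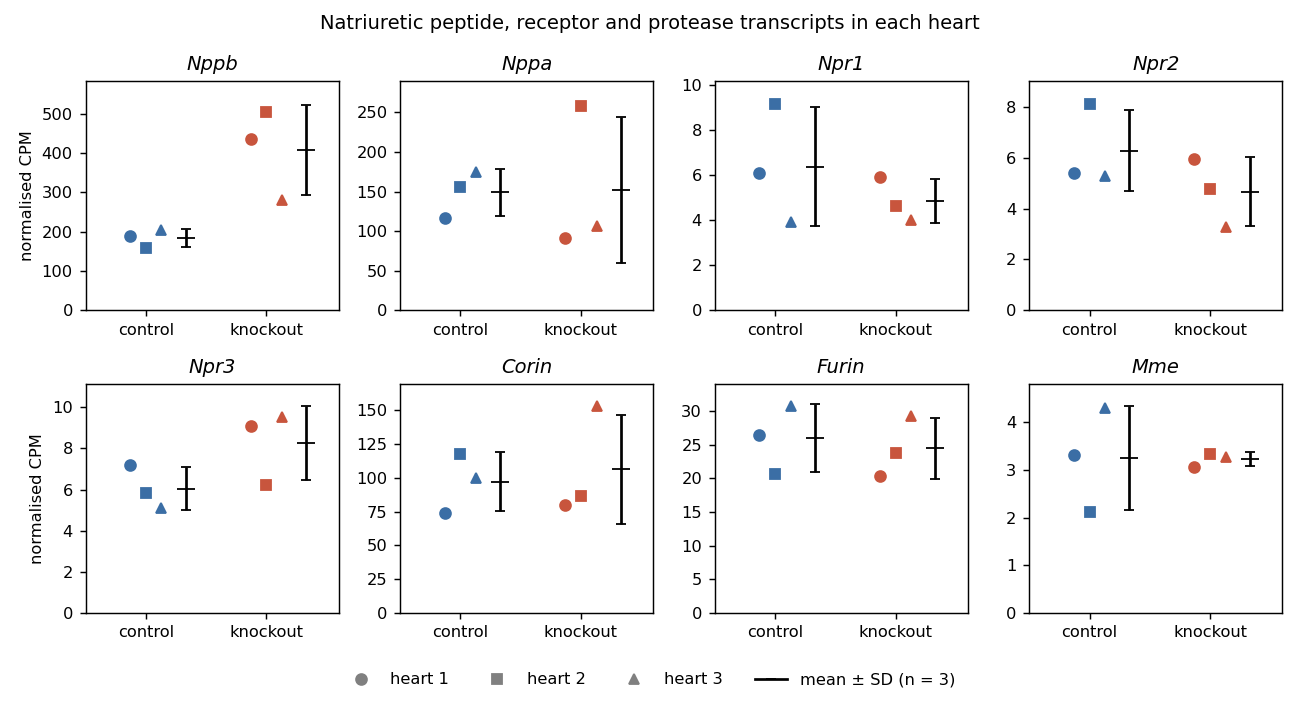
Normalised CPM (y axis, from 0) of the 8 tested members in each of the 6 hearts, with 1 panel per gene, marker shape giving the heart number and black bars the mean ± SD of 3 hearts. The 3 knockout values of Nppb, 281 to 505, lie above its control values of 158 to 204, while the groups overlap in the other 7 panels.

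Nppa (ENSMUSG00000041616), the ANP gene, had knockout values on both sides of the control range. It was at 116, 156 and 175 normalised CPM in control hearts 1, 2 and 3 and at 91.8, 258 and 106 in knockout hearts 1, 2 and 3. Knockout heart 2 was the highest of all 6 and knockout hearts 1 and 3 the lowest, so the knockout hearts spanned the control range. The log2 fold change was 0.03 (95% interval -0.85 to 0.91), which leaves room for a ratio between 0.554 and 1.87 (edgeR adjusted p = 0.982), and it ran from -0.61 without knockout heart 2 to 0.28 without knockout heart 1. The highest knockout heart had 2.81 times the Nppa of the lowest, against 1.504 times among controls. Its SD between hearts of a group, 0.61 on the log2 scale, was larger than that of 92.6% of tested genes, where that of Nppb was larger than 61.7%.

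Markers of atrial muscle differed between hearts within each group. Sln, the sarcolipin gene of atrial muscle, was at 0.647, 8.13 and 38.7 normalised CPM in control hearts 1, 2 and 3 and at 0.272, 8.34 and 44.6 in knockout hearts 1, 2 and 3. Hearts with number 3 were thus the highest in both groups and hearts with number 1 the lowest, as for Myl4 and Myl7. All 11 genes of the atrial list together summed to 105, 177 and 331 normalised CPM in control against 124, 149 and 277 in knockout hearts 1, 2 and 3, with no gene of the list at 0 in all libraries. Not every gene of the list had the order of Sln. Kcna5 was at 41.1, 54.2 and 44.9 in control against 68.4, 46.6 and 22.8 in knockout hearts 1, 2 and 3. It was the largest single part of the sum in hearts 1 and 2 of both groups, and Myl4 was in heart 3 of both (96.6 and 92.5). The sum in hearts 1 and 2 thus depends much on a gene without the order of Sln. In control hearts Nppa had the same order as the atrial sum. In knockout hearts Nppa did not, since heart 2 had the most Nppa and heart 3 the highest sum. With the mean log2 level of the atrial list as a covariate the log2 fold change of Nppa was 0.09 (edgeR adjusted p = 0.915).

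**Figure D2:**
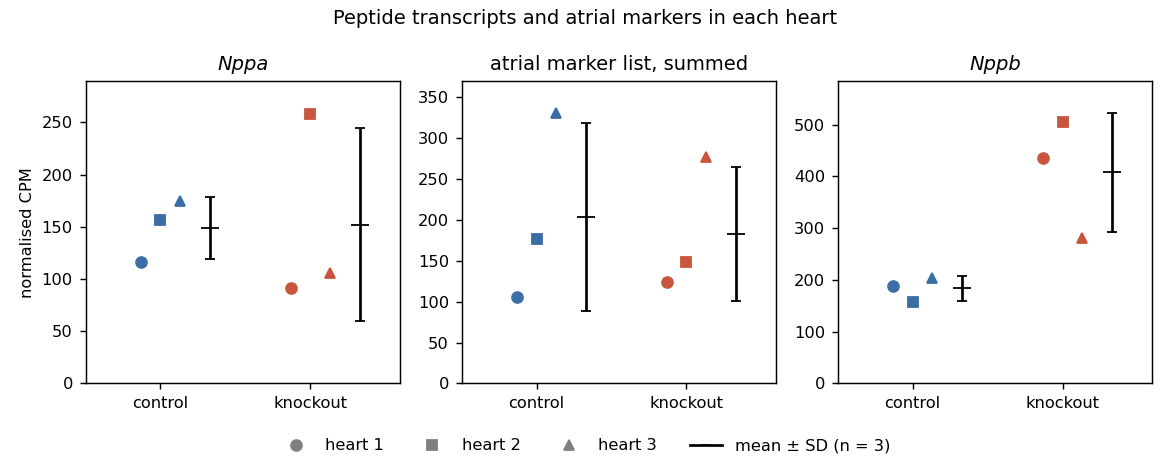
Normalised CPM (y axes, from 0) of Nppa, of the summed atrial marker list and of Nppb in each heart, with marker shape giving the heart number and black bars the mean ± SD of 3 hearts. The atrial sum is highest in heart 3 of both groups (331 and 277), Nppa in knockout heart 2 (258) and Nppb in knockout heart 2 (505).

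Within each library Nppb was set against Nppa as a ratio of counts (0.5 added to each), which no scaling between libraries can alter. The ratio was 1.62, 1.01 and 1.17 in control hearts 1, 2 and 3 against 4.75, 1.96 and 2.65 in knockout hearts 1, 2 and 3. All 3 knockout hearts lay above the controls. The knockout ratio was 2.34 times the control ratio (log2 difference 1.23, means of log2 ratios 1.54 ± 0.65 and 0.31 ± 0.35, SD, n = 3 each). An exact permutation test, two-sided, gave 0.1, the lowest possible here, and 0.2 after Benjamini-Hochberg adjustment over the 4 ratios computed. Knockout heart 1 reached its ratio of 4.75 with the lowest Nppa of all hearts, and knockout heart 2 had the highest level of both peptides.

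The 3 protein-coding neighbours on the Nppb side of the pair on chromosome 4 are Mfn2, Plod1 and 2510039O18Rik, in the order of RefSeq's GRCm38.p6. Their log2 fold changes were 0.20, -0.20 and 0.26 in that order (edgeR adjusted p 0.694 to 0.722). None of these 3 passed the test, and the 95% interval of each included 0. Genes on the Nppa side of the pair are not reported here. Mfn2, which encodes a mitochondrial fusion protein, was the most abundant of them at 155 ± 20.9 normalised CPM in control and 178 ± 14.3 in knockout hearts. The antisense gene Gm13054, whose exons overlap those of Nppa on the other strand in GENCODE M21, had at most 14 counts in a library. The library protocol as described names no strand marking, so reads of the 2 cannot be told apart where they overlap.

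Nppc (ENSMUSG00000026241), the CNP gene, was at the limit of detection. It had 0, 2 and 2 counts in control hearts against 0, 1 and 0 in knockout hearts, or 4 and 1 in all. A count of 0 allows up to 3 counts as a one-sided 95% limit, which is 0.244 deposited CPM in control heart 1 and 0.223 and 0.198 deposited CPM in knockout hearts 1 and 3. Such limits cover counting error only, and no difference in Nppc was detectable at this depth.

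The 3 receptors were expressed at low levels, with 59 to 171 counts per library, so that counting alone gave each value an exact Poisson 95% interval of ± 15.3% to ± 26.4%. Npr1 (ENSMUSG00000027931), the cyclase receptor of ANP and BNP, was at 6.07, 9.15 and 3.91 normalised CPM in control hearts 1, 2 and 3 and at 5.91, 4.63 and 4.003 in knockout hearts 1, 2 and 3. The knockout values all fell inside the control range. Its log2 fold change was -0.39 (95% interval -1.12 to 0.35, edgeR adjusted p = 0.706), and it ran from -0.65 without control heart 3 to -0.05 without control heart 2.

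Npr2 (ENSMUSG00000028469), the cyclase receptor of CNP, was at 5.42, 8.13 and 5.31 normalised CPM in control hearts 1, 2 and 3 and at 5.98, 4.78 and 3.28 in knockout hearts 1, 2 and 3. Control heart 2 was high and knockout heart 3 low, and the groups overlapped. The log2 fold change was -0.42 (95% interval -1.08 to 0.23, edgeR adjusted p = 0.694). It ran from -0.65 without knockout heart 1 to -0.21 without knockout heart 3, and was -0.22 without control heart 2. In both cyclase receptors the highest of all 6 hearts was control heart 2.

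Npr3 (ENSMUSG00000022206), the clearance receptor, which is also a marker of endocardium, was at 7.20, 5.82 and 5.11 normalised CPM in control hearts 1, 2 and 3 and at 9.11, 6.22 and 9.51 in knockout hearts 1, 2 and 3. Knockout hearts 1 and 3 lay above all controls and knockout heart 2 within their range. The mean was 6.04 ± 1.06 in control and 8.28 ± 1.79 in knockout hearts (SD, n = 3 each). The log2 fold change was 0.46 (95% interval -0.08 to 1.002, edgeR adjusted p = 0.694), and 0.35 to 0.61 when 1 library was left out. The 7 endocardial markers, Npr3 among them, summed to 40.7 to 51.9 normalised CPM in control hearts and to 41.3 to 65.0 in knockout hearts, with the 2 highest sums in knockout hearts 1 and 3. Their part in the Npr3 values was not tested.

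The clearance receptor was set against the cyclase receptor in each library. Npr3 over Npr1 was 1.19, 0.638 and 1.30 in control hearts 1, 2 and 3 against 1.54, 1.34 and 2.37 in knockout hearts 1, 2 and 3. The knockout hearts all lay above the controls, by a narrow margin for knockout heart 2. The knockout ratio was 1.70 times the control ratio (log2 difference 0.77, means of log2 ratios 0.76 ± 0.43 and -0.01 ± 0.56, SD, n = 3 each), with an exact two-sided permutation p of 0.1 and 0.2 adjusted over the 4 ratios. The log2 difference ran from 0.45 without control heart 2 to 0.96 without control heart 3.

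**Figure D3:**
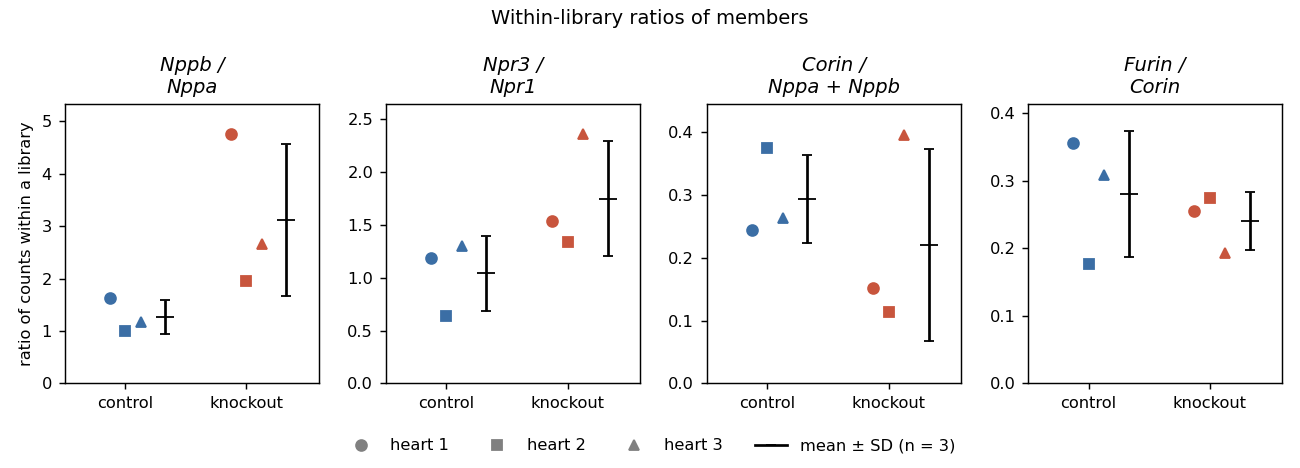
Ratios of counts of members within a library (y axes, from 0) in each heart, with marker shape giving the heart number and black bars the mean ± SD of 3 hearts. Knockout hearts lie above control hearts for Nppb over Nppa (1.96 to 4.75 against 1.01 to 1.62) and for Npr3 over Npr1 (1.34 to 2.37 against 0.638 to 1.30), and the groups overlap for the other 2 ratios.

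Corin (ENSMUSG00000005220), the membrane protease of cardiomyocytes that cuts the ANP precursor, was the most abundant of the 3 proteases. It was at 74.3, 118 and 99.9 normalised CPM in control hearts 1, 2 and 3 and at 79.8, 86.7 and 153 in knockout hearts 1, 2 and 3. Knockout heart 3 was the highest of all and the other knockout hearts lay within the control range. The log2 fold change was 0.13 (95% interval -0.54 to 0.80, edgeR adjusted p = 0.878), and -0.22 without knockout heart 3, which is also the library that stood apart. It was -0.04 without control heart 1 and 0.30 without knockout heart 1.

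Corin counts were set against the summed counts of Nppa and Nppb, a ratio of transcripts not corrected for length. Nppb is part of the divisor, so its difference enters this ratio. The ratio was 0.244, 0.374 and 0.264 in control hearts 1, 2 and 3 against 0.151, 0.114 and 0.396 in knockout hearts 1, 2 and 3. Knockout hearts 1 and 2 lay below all controls and knockout heart 3 above them, and the exact two-sided permutation p was 0.4 (0.533 adjusted over the 4 ratios). The log2 difference was -0.61 with all libraries, and ran from -1.14 without knockout heart 3 to -0.24 without knockout heart 2.

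Furin (ENSMUSG00000030530), a protease of the secretory pathway found in most cells, was at 26.4, 20.7 and 30.8 normalised CPM in control hearts 1, 2 and 3 and at 20.3, 23.8 and 29.4 in knockout hearts 1, 2 and 3. The groups covered nearly the same range. Its log2 fold change was -0.09 (95% interval -0.59 to 0.42, edgeR adjusted p = 0.895) with TMM scaling, 0.06 with scaling by library size alone and 0.05 without control heart 3. Scaling by library size alone moved the median of all genes from 0.01 to 0.17 on the log2 scale. Furin was the member with fractional counts, in 5 of 6 libraries, and how reads were divided is not given in the sources used here. Furin over Corin was 0.356, 0.176 and 0.308 in control hearts against 0.255, 0.275 and 0.192 in knockout hearts 1, 2 and 3 (exact two-sided permutation p = 0.6, and 0.6 adjusted over the 4 ratios).

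Mme (ENSMUSG00000027820), the gene of neprilysin, which degrades natriuretic and other peptides, had 23 to 65 counts per library. It was at 3.32, 2.12 and 4.31 normalised CPM in control hearts 1, 2 and 3 and at 3.06, 3.34 and 3.28 in knockout hearts 1, 2 and 3. The knockout values lay close together inside the control range. The log2 fold change was -0.02 (95% interval -0.69 to 0.64, edgeR adjusted p = 0.979), 0.10 with scaling by library size alone and 0.24 without control heart 3.

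**Figure D4:**
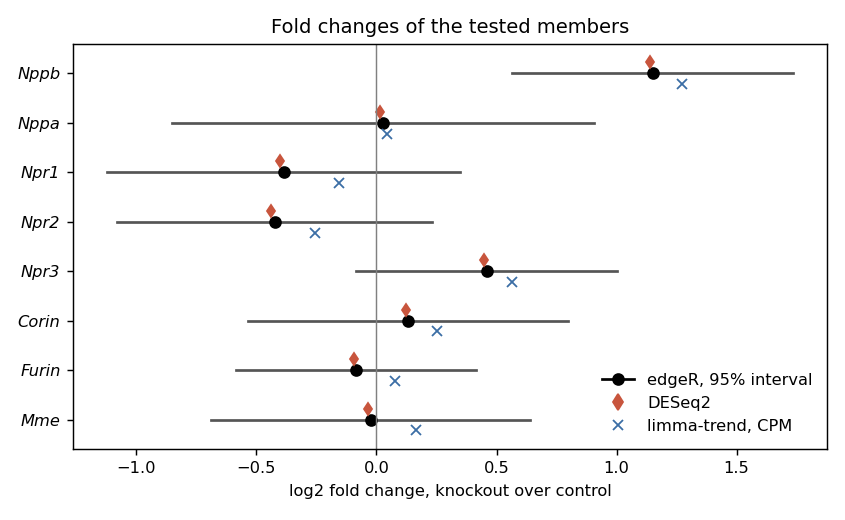
Log2 fold change, knockout over control (x axis), of the 8 tested members, with black points and bars for edgeR's estimate and 95% confidence interval, diamonds for DESeq2 and crosses for limma-trend on log2(CPM + 0.5). The interval of Nppb, 0.56 to 1.74, is the 1 that does not include 0, and Furin and Mme change sign between methods.

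Over the 8 tested members 4 log2 fold changes lay above and 4 below 0, with a median of 0.0014, beside 0.01 over all 13717 genes. The remaining genes of the pathway were described from 5 lists of 62 tested genes. Of these 0 passed edgeR's adjusted threshold, and 3 had an unadjusted p below 0.05, 1 higher and 2 lower (DESeq2, limma-trend and the unfiltered edgeR fit also called 0). With TMM scaling 35 lay above 0, and 48 with scaling by library size alone, and the median log2 fold change was 0.04 with TMM. Over all genes 7010 of 13717 lay above 0 with TMM. Groups did not overlap in 5 of the 62 genes, 3 higher (Pde3b, Pde6d and Tead1) and 2 lower (Ide and Adra1a), where 12.1% of all genes had this pattern.

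Downstream of the receptors, 11 genes of cyclic GMP synthesis and action were tested, 6 above and 5 below 0 (median 0.06). Pln, which encodes the inhibitor phospholamban of the calcium pump, was at 1223, 787 and 1398 normalised CPM in control hearts 1, 2 and 3 against 994, 1415 and 3099.6 in knockout hearts 1, 2 and 3. Knockout heart 3 was far above the rest, and the log2 fold change was 0.69 with it and 0.09 without it. Rgs2, a regulator of G-protein signalling, had the same shape, with 40.4, 24.9 and 34.8 normalised CPM in control against 27.4, 30.4 and 99.9 in knockout hearts 1, 2 and 3 (0.66, and -0.21 without knockout heart 3). Rgs4, of the same family, was at 14.1 ± 2.71 and 10.7 ± 1.43 (log2 fold change -0.39, or -0.24 without control heart 2). For all 3 edgeR's adjusted p was 0.694.

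Phosphodiesterases break down cyclic GMP and cyclic AMP, and 10 of the 11 listed genes were tested, 5 above and 5 below 0 (median -0.07). Pde3a, a cyclic AMP phosphodiesterase of heart muscle, was at 38.8 ± 10.2 normalised CPM in control and 52.0 ± 19.4 in knockout hearts (log2 fold change 0.42, or 0.07 without knockout heart 3). Pde2a, which cyclic GMP activates, was at 15.6 ± 3.46 and 12.7 ± 3.01 (-0.29, and -0.12 without control heart 2). Pde1a, a calcium-dependent enzyme, was at 6.25 ± 0.304 and 5.52 ± 1.31 (-0.18, and -0.04 without knockout heart 2, SD, n = 3 each). The edgeR adjusted p of these 3 was 0.694 to 0.780. Pde6d, a lipid-binding subunit, was the list's 1 gene with an unadjusted edgeR p below 0.05 (log2 fold change 0.80, adjusted p = 0.694, and 0.40 without knockout heart 3).

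Among 9 tested genes of further peptide maturation and clearance, 4 lay above and 5 below 0 (median -0.01). Pam, which amidates peptides in secretory granules and is abundant in atrial muscle, was at 126 ± 26.2 normalised CPM in control and 161 ± 46.5 in knockout hearts (log2 fold change 0.35, or 0.18 without knockout heart 2). Its values were 114, 108 and 156 in control hearts 1, 2 and 3 against 108, 195 and 180 in knockout hearts 1, 2 and 3, with knockout heart 2 the highest, as for Nppa. Ide, the insulin-degrading enzyme, which also cuts natriuretic peptides, was lower in every knockout heart than in any control, at 33.5 ± 1.71 and 29.1 ± 1.66 (-0.20, 95% interval -0.57 to 0.17, edgeR adjusted p = 0.705). Ece1, the endothelin-converting enzyme, was at 36.8 ± 3.80 and 42.3 ± 9.76 (0.20, and -0.0091 without knockout heart 1).

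All 18 listed transcription regulators of natriuretic peptide genes were tested, 9 above and 9 below 0 (median 0.0026). The GATA factor Gata4 was at 9.30, 5.82 and 9.75 normalised CPM in control hearts 1, 2 and 3 and at 7.81, 10.2 and 23.0 in knockout hearts 1, 2 and 3 (log2 fold change 0.72, or 0.11 without knockout heart 3). Myocd, the myocardin coactivator of serum response factor, was at 73.6, 41.1 and 36.9 in control against 32.6, 38.1 and 21.7 in knockout hearts 1, 2 and 3 (-0.72, unadjusted edgeR p below 0.05, adjusted p = 0.694, and -0.35 without control heart 1). Yap1, a coactivator of TEAD factors, was at 27.4 ± 3.66 and 39.3 ± 14.6 (0.52, and 0.18 without knockout heart 3).

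Of 14 tested genes of hormones and receptors that act on the heart, 11 lay above and 3 below 0 (median 0.06). Over all genes 7010 of 13717 lay above 0 (median 0.01). Adra1a, an adrenergic receptor of heart muscle, was at 11.6, 14.0 and 11.2 normalised CPM in control hearts 1, 2 and 3 against 10.3, 7.36 and 3.39 in knockout hearts 1, 2 and 3. Every knockout heart was below every control (log2 fold change -0.82, 95% interval -1.62 to -0.01, unadjusted edgeR p below 0.05, adjusted p = 0.694), and the log2 fold change was -0.47 without knockout heart 3. The angiotensin receptor Agtr1a was at 8.43 ± 1.62 and 13.5 ± 8.04 (0.68, and 0.08 without knockout heart 3). A second adrenergic receptor, Adra1b, was at 6.64 ± 1.79 and 9.42 ± 8.64 (0.51, and -0.59 without knockout heart 3).

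**Figure D5:**
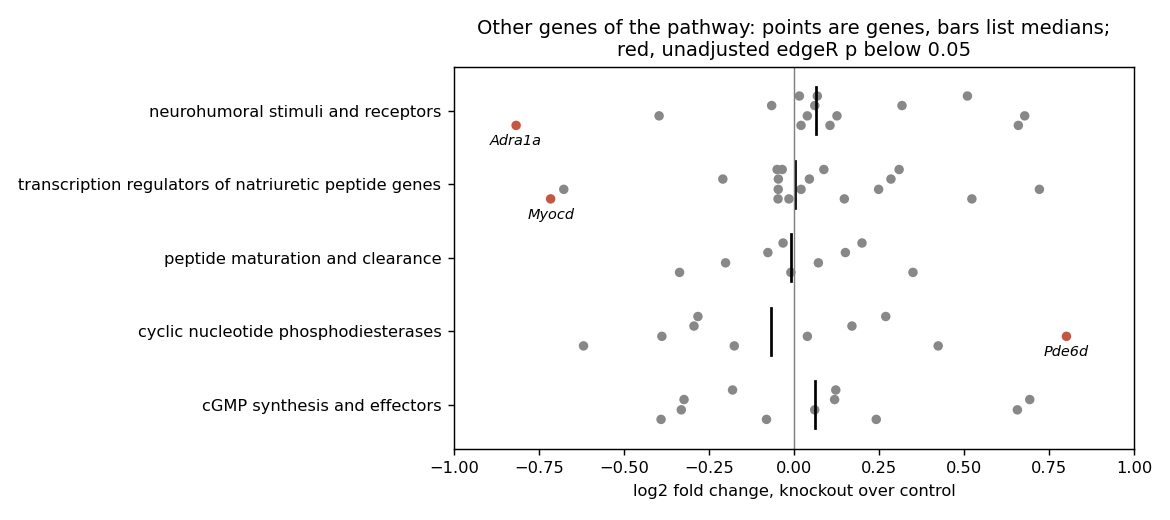
Log2 fold change, knockout over control (x axis), of the tested genes of 5 pathway lists, with 1 point per gene, black bars for list medians and red points for an unadjusted edgeR p below 0.05. The medians lie between -0.07 and 0.06, and the 3 red genes are Adra1a, Myocd and Pde6d.

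The genes most like the 2 peptides over the 6 hearts were searched among 5710 protein-coding genes with at least 10 normalised CPM on average. For Nppb they were Epc2 (Pearson r = 0.99 over 6 libraries), Tnfrsf12a (0.98) and Itgb5 (0.98). Tnfrsf12a, the receptor of the cytokine TWEAK, was at 8.82, 7.76 and 10.1 normalised CPM in control hearts 1, 2 and 3 and at 17.0, 16.7 and 13.0 in knockout hearts 1, 2 and 3. Itgb5, an integrin subunit, was at 73.4, 74.0 and 77.6 in control against 95.3, 107 and 87.2 in knockout hearts. For Nppa they were Pex6, Ppp1r13l and Eif4e2 (r of 0.98 each), and Pex6, a peroxisome assembly gene, was at 12.1, 13.8 and 14.5 in control against 10.6, 16.01 and 11.9 in knockout hearts 1, 2 and 3. An r over 0.9 was found with Nppb for 25 genes and with Nppa for 33. These are descriptions, and the values of different genes in a library share its depth and composition.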

How the data were processed

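RNA of 3 control and 3 Ybx1-deleted hearts was measured, 1 library each. Per the labels' protocols, total RNA was primed with oligo(dT), and libraries were made by tagmentation and PCR. The submitters' processing notes name edgeR 4.0.16, Subread 2.1.1 with featureCounts, SAMtools 1.22.1, STAR 2.7.11 and the mm39 build, without their order, and the annotation release and strand setting are not given in the sources used here. Some of the authors' deposited estimated counts hold a fraction of a read, and they were rounded to whole numbers. The authors' deposited CPM equalled each count scaled to its column's total.

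Genes with deposited CPM of at least 1 in at least 3 libraries (13717) were tested with the quasi-likelihood test of edgeR, version 4.0.16, under R 4.3.3, with TMM scaling and two-sided Benjamini-Hochberg adjustment over all of them. Normalised CPM are scaled by these factors. Intervals are from the t distribution. The edgeR p-values set the difference between groups against the spread of hearts within groups, moderated over all genes, for these 6 hearts. Alternatives were DESeq2 1.42.0, limma-trend (limma 3.58.1) on log2(CPM + 0.5), other scalings and filters, a replicate block and leaving out each library. The fit was tested on simulated data. The members and lists were chosen with earlier results of these data known. Besides the members, the genes named are the 3 of each pathway list with the largest absolute log2 fold change at a mean of at least 5 normalised CPM, and the 3 protein-coding genes most correlated with Nppa and with Nppb on the log2(normalised CPM + 0.5) scale, at a mean of at least 10. Pde3b, Pde6d, Tead1, Myh6, Ttn, Ryr2, S100a8, S100a9, Sln, the chromosome 4 neighbours of Nppb and Gm13054 fall outside this rule and were chosen after values were seen. The same holds for Malat1, C1qa, Cd163, Ly6c2, Lum, Tcf21, Dpep1, Col1a1, Myl4, Myl7 and Kcna5. Lengths are of GENCODE M21 exons, and promoter windows are from RefSeq (GRCm38.p6), with all 9 members matched by symbol.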

Additional observations from a re-analysis of the deposited data

How the results depend on the processing

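Nppb kept its direction in all 16 alternatives (log2 fold change 0.95 to 1.38), and so did Npr1, Npr2 and Npr3. The main edgeR count of 0 genes became 15 in DESeq2, 133 with no filter on low values, 5 with the replicate block and 4 without the 2 libraries that express Xist, and was 0 to 1 when each library was left out (1 without knockout heart 3). The count of members called, 0, became 1 (Nppb) in DESeq2 and 1 (Nppb) with no filter. The count of pathway genes above 0, 35 of 62, became 22 with a filter of 5 CPM, which tested 46 of them.

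Values near 0 changed sign. The log2 fold change of Nppa was -0.0084 with the filter of 5 CPM, -0.12 with the replicate block and -0.61 to 0.28 when 1 library was left out. For Corin it was -0.39 without the Xist-expressing libraries and -0.22 to 0.30 without 1 library. For Furin it was 0.076 in limma-trend, 0.062 with library size alone and -0.24 to 0.055 without 1 library. For Mme it was 0.16 in limma-trend, 0.10 with library size alone, 0.0071 with the replicate block, 0.0080 with the atrial covariate and -0.26 to 0.24 without 1 library. Furin over Corin ran from -0.48 to 0.030 without 1 library (log2 difference). The causes were not tested. The covariate and the fit without the Xist-expressing libraries were chosen after seeing the data.

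The labels number the hearts in both groups, and the sources used here name no pairing. Deviations of same-numbered hearts correlated at -0.11, 0.45 and 0.58, so the numbers were not taken as pairs, and with the replicate block Nppb was at 1.12 (edgeR adjusted p = 0.184). Control heart 3 and knockout hearts 2 and 3 correlated best with the same number in the other group, and the other 3 hearts did not. Sln, Myl4 and Myl7 had the same order of heart numbers in both groups. Whether hearts of the same number share a batch or dissection was not tested.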

Other observations

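The other members' windows before the start, 250 bases in RefSeq's GRCm38.p6, were searched for the same motifs. Of the 12 windows of the 9 members, the GATA motif was found in those of Nppb and Nppa and in no other. This share is near the 16.6% of all windows that held it. The Y-box core (ATTGG, on either strand), which 33.8% of all windows held, was found for Nppc, Npr1, Npr3 and Corin. It was also found in some but not all windows of Furin and Mme, which have more than 1 window each. The M-CAT motif, held by 12.6% of all windows, was found in 1 window of Mme as well as in that of Nppb. The NKX2-5 motif, held by 10.1%, was found in 1 window of Furin as well as in that of Nppa. Beyond Nppb and Nppa, the TATA motif, held by 12.4% of all windows, was found for Nppc and in 1 window of Furin. A CArG box or MEF2 motif, held by 1.47% and 2.92% of all windows, was found in none of the 12. An AP-1 motif (TGANTCA), held by 6.75%, was found in 1 window of Mme. These are descriptions of letters in short windows.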
